A study of Mus musculus with 2 samples.

Results

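The Ifitm family codes for small membrane proteins named for their induction by interferon. The 5 members described here are Ifitm1, Ifitm2, Ifitm3, Ifitm6 and Ifitm10. They were taken by their symbols from the 32285 genes listed in each of 2 single-cell RNA libraries, and both libraries held UMIs of all 5. A UMI is a unique molecular identifier, 1 per captured transcript. The cells came from female BALB/c mice (BALB/cAnNCrl in the labels) aged 7 to 8 weeks that carried liver metastases of 4T1, a mouse breast cancer line. The mice received CBL0137 at a low or a high dose, or the vehicle alone, by hepatic arterial infusion, with 2 mice pooled per group and the cells taken 5 days later. CBL0137 is a curaxin, a compound that disturbs the contact of DNA with histones. Hashtags, which are antibodies carrying an oligonucleotide, told the groups apart within a library: A0301 stood for the vehicle, A0305 for the low dose and A0310 for the high dose. The labels and the methods do not state the amount that a low or a high dose stood for in these mice. Each group was 1 pooled sample in each library, so there is no replicate, no test and no p-value, and every interval below is a 95% interval that covers counting error only.

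The liver-labelled library gave 8435 cells with 1 hashtag (3103 vehicle, 3194 low dose and 2138 high dose) and the spleen-labelled library gave 2988 (822, 1301 and 865). They shared 15 cell barcodes, and no log2 ratio below moved beyond its interval without those cells. Against the labels, 5 of 7 hepatocyte markers were at 0 in the liver-labelled library, and the list summed to 0.0874 CPM (UMIs of a gene per 1000000 UMIs) there and to 83.2 CPM in the spleen-labelled library. Markers of Kupffer cells, the resident macrophages of the liver, summed to 15.2 and 637 CPM, so the libraries are named by their labels only. The methods describe CD11b+ cells isolated with magnetic beads, whereas the labels describe leukocytes, and both libraries held T cell-like and B cell-like cells. Cells were clustered without the Ifitm genes and without the interferon lists used below, and a cluster is called X-like when it carried the markers of cell type X. Clusters 3 and 4 of the liver-labelled library and cluster 2 of the spleen-labelled library were neutrophil-like by 3, 3 and 5 of 12 markers. Il1b and Csf1 were among the leading genes of each.

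Ifitm proteins sit in the plasma membrane and in endosomes, and Ifitm1, Ifitm2 and Ifitm3 are known for hindering the fusion of enveloped viruses with the cell. Less is known of Ifitm6 and Ifitm10. Type I and type II interferons induce family members through STAT proteins, which bind the interferon-stimulated response element and the gamma-activated sequence. Neutrophils pass from granule-producing precursors, which transcribe Camp, Ngp and Ltf, to mature cells with Csf3r, Cxcr2 and, when activated, Il1b. In tumor-bearing mice, cells of this lineage that restrain T cells are called granulocytic myeloid-derived suppressor cells.

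Of the 5 genes, 4 lie close together on chromosome 7 of GRCm38, in the order Ifitm2 (140954837 to 140955987, minus strand), Ifitm1 (140967221 to 140969825, plus strand), Ifitm3 (141009586 to 141010770, minus strand) and Ifitm6 (141015699 to 141017924, minus strand). Ifitm10 lies apart on the same chromosome, at 142325837 to 142373753 on the minus strand. RefSeq windows (GRCm38.p6), which run from 250 bases before to 50 bases after a RefSeq start of each gene, were searched on both strands. The motifs were GAAA repeated after 2 free bases, the core of the interferon-stimulated response element, and TTCNNNGAA, the gamma-activated sequence. The windows of Ifitm1 (140967826 to 140968125) and Ifitm6 (141016843 to 141017142) lay wholly inside the gene bounds above. Sequence around the outer start of these genes was therefore not searched. The stretches that hold a match are shown because, within these windows, only Ifitm2 and Ifitm3 held the response element. They run 5′ to 3′ along the gene, with the named match in capitals:
Ifitm2, chr7:140955988-140956017, minus strand, response element: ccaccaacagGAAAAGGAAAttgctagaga
Ifitm3, chr7:141010715-141010744, minus strand, 2 response elements: agGAAAAGGAAActtctgaGAAACCGAAAc
Ifitm6, chr7:141016884-141016913, minus strand, gamma-activated sequence: cccatatgaacTTCCTTGAAacaagagctt
Ifitm2 held 1 response element at -46 from the start, and Ifitm3 held 2, at +3 and +20, with a gamma-activated sequence at +14 that overlaps the second and is not capitalised in the line above. Ifitm6 held a gamma-activated sequence at -10. No match of either motif lay in the window of Ifitm1 or in the 3 windows of Ifitm10. Over all 32851 windows, 3.44% held the response element and 8.30% the gamma-activated sequence. Of 31 interferon-stimulated genes with a window, 20 held the response element and 8 the gamma-activated sequence. A match is a description of these letters and not of binding.

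Ifitm1, Ifitm2, Ifitm3 and Ifitm6 were abundant transcripts and Ifitm10 was rare. In the liver-labelled library, Ifitm1 had 259478 UMIs in cells with a hashtag, Ifitm2 156090, Ifitm3 121747, Ifitm6 221340 and Ifitm10 333. In the spleen-labelled library the same genes had 71796, 50659, 60900, 56709 and 95. No stretch of 91 bases in the transcripts of Ifitm1, Ifitm3 and Ifitm6 was shared with another gene. For Ifitm2, 37.5% of 565 such stretches also occur in the gene models Gm11951, Gm45717 or Gm8865, so its counts are uncertain by whatever reads the counting left out or moved. For Ifitm10, 2.65% of 4785 stretches also occur in Gm49369, and its few counts carry the same limit. Levels below are compared between cells for each gene on its own and not between genes.

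**Figure D1:**
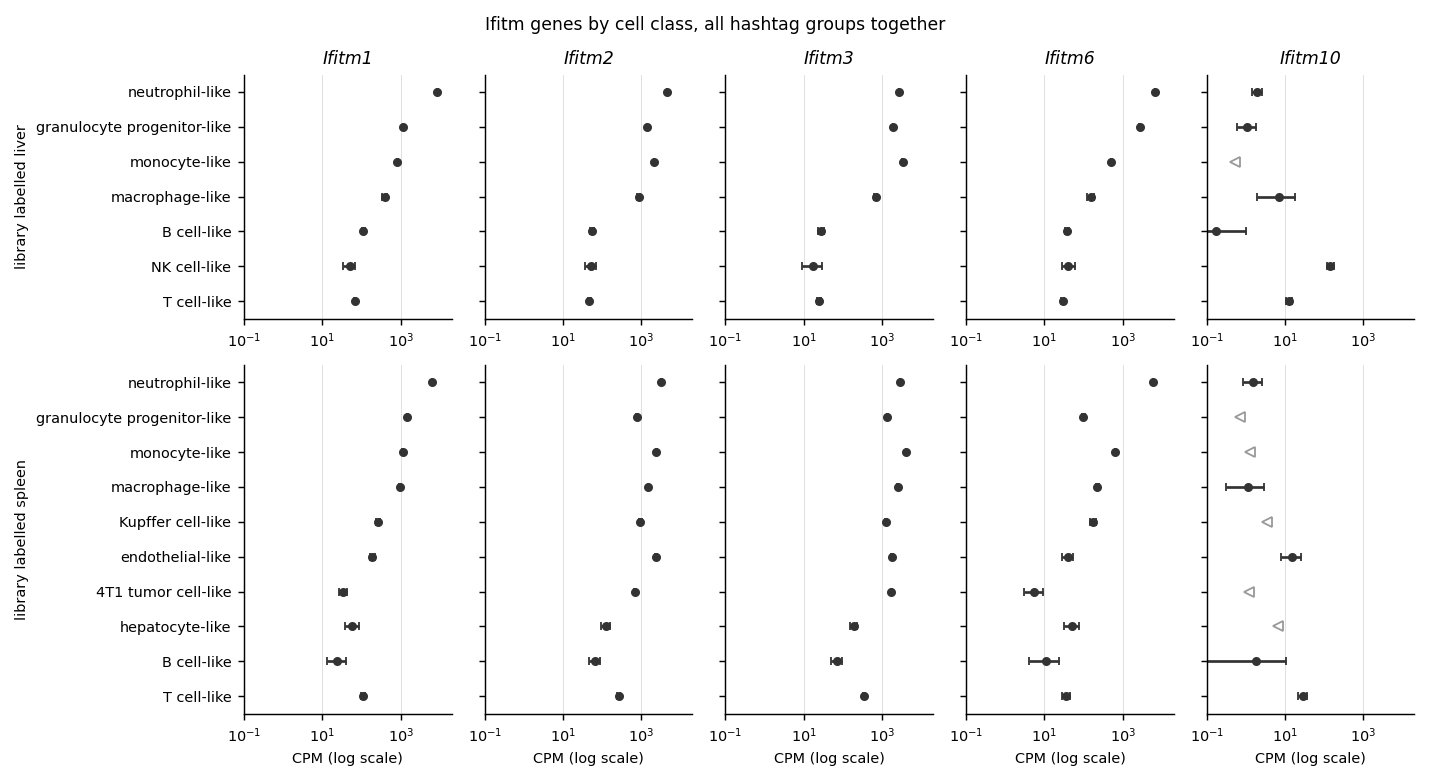
Level of each Ifitm gene in every cell class with at least 50 cells, all hashtag groups together, in CPM on a log axis; points carry exact Poisson 95% intervals and open triangles mark the limit that a count of 0 allows. Ifitm1, Ifitm2 and Ifitm6 stand highest in neutrophil-like cells, Ifitm3 in monocyte-like cells and Ifitm10 in NK cell-like cells of the first library and T cell-like cells of the second, where the interval of endothelial-like cells overlaps.

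Ifitm1 and Ifitm6 were highest in neutrophil-like cells taken as a class, Ifitm1 by a wide margin. With all groups together, Ifitm1 stood at 8672 CPM (8637 to 8708) in the 2919 neutrophil-like cells of the liver-labelled library, at 1139 CPM in granulocyte progenitor-like cells, 824 CPM in monocyte-like cells and 391 CPM in macrophage-like cells. It stood at 112 CPM in B cell-like, 67.1 CPM in T cell-like and 49.5 CPM in NK cell-like cells, of which the last 2 had overlapping intervals. The spleen-labelled library gave the same leading order for Ifitm1, from 6183 CPM (6133 to 6234) in 1136 neutrophil-like cells through 1457 CPM in progenitor-like, 1123 CPM in monocyte-like and 961 CPM in macrophage-like cells. The lowest level there was 24.1 CPM, in B cell-like cells, with an interval that overlapped that of 4T1 tumor cell-like cells at 33.7 CPM. Ifitm6 stood at 6651 CPM in the neutrophil-like cells of the liver-labelled library, 2677 CPM in progenitor-like and 505 CPM in monocyte-like cells. It stood at 5807 CPM in neutrophil-like cells, 648 CPM in monocyte-like cells and 97.9 CPM in progenitor-like cells of the spleen-labelled library. The progenitor-like classes are not the same cells in the 2 libraries: cluster 12 of the liver-labelled library, led by Elane and Fcnb, had Ifitm6 at 4303 CPM, and cluster 18, led by Car2 and Myb, had it at 50.9 CPM. 4T1 tumor cell-like cells had the lowest Ifitm6 level, 5.55 CPM (14 UMIs in 60 cells), with an interval that overlapped that of B cell-like cells at 11.1 CPM.

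Ifitm3 had another order. Its highest level was in monocyte-like cells of both libraries, 3336 CPM and 4104 CPM, above 2752 and 2889 CPM in neutrophil-like cells. It was also high in cells that are not blood cells: in the spleen-labelled library, endothelial-like cells had 1807 CPM (1720 to 1897) and 4T1 tumor cell-like cells 1723 CPM (1672 to 1775), 2 levels whose intervals overlapped. Ifitm2 stood at 4521 and 3247 CPM in neutrophil-like cells and at 2109 and 2419 CPM in monocyte-like cells. Endothelial-like cells had Ifitm2 at 2366 CPM, which overlapped the monocyte-like level of the spleen-labelled library. Ifitm1 and Ifitm6 were low in the same endothelial-like cells, at 189 and 39.3 CPM.

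Lymphocyte-like cells carried few Ifitm UMIs in the liver-labelled library. T cell-like cells had 0.773% of the neutrophil-like level of Ifitm1, 1.04% of that of Ifitm2, 0.881% of that of Ifitm3 and 0.437% of that of Ifitm6. The neutrophil transcripts S100a8, S100a9, Retnlg and Camp, which T cells should lack, had 0.327% to 0.401% of their neutrophil-like level in the same cells. T cell-like cells of the spleen-labelled library had 12.2% of the neutrophil-like level of Ifitm3 (351 CPM) and 8.04% of that of Ifitm2 (261 CPM), while those 4 neutrophil transcripts had 0.095% to 0.631%. Ifitm6 had 0.609% there, within the range of the neutrophil transcripts. T cell-like cells of the low dose group of that library had Ifitm3 at 403 CPM (355 to 455) and those of the high dose group at 291 CPM (263 to 321), and the vehicle group held under 50 T cell-like cells. Summed neutrophil markers, 1 of 12 at 0 in each, were at 5298 and 504 CPM in those low dose and high dose cells, and their part in the difference was not tested.

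Ifitm10 was highest in NK cell-like cells. In the liver-labelled library, 100 of its 333 UMIs were in 155 NK cell-like cells, at 142 CPM (115 to 172), and 159 in 2472 T cell-like cells, at 12.5 CPM (10.7 to 14.6). Neutrophil-like cells had 1.92 CPM and B cell-like cells 0.175 CPM (1 UMI). Macrophage-like cells had 6.94 CPM (4 UMIs, 1.89 to 17.8), which overlapped the T cell-like level. Monocyte-like cells had 0 UMIs, which allows a level of up to 0.529 CPM. Among T cell-like clusters, cluster 2, led by Cd8b1 and Cd8a, had 31.7 CPM (26.3 to 37.9) and cluster 8, with Foxp3 and Ctla4 among its leading genes, 10.6 CPM (6.75 to 16.0). In the spleen-labelled library, where no NK cell-like cluster was found, the T cell-like cluster 5 had 31.4 CPM (23.5 to 41.2). Its leading genes held Cd3g and Cd8a, and also Gzma, Ccl5, Gzmb, Prf1 and Klrd1, which led the NK cell-like cluster of the liver-labelled library too. Whether NK cells sit in cluster 5 was not tested. Over all T cell-like cells of the spleen-labelled library the level was 27.8 CPM (21.3 to 35.6), which overlapped that of endothelial-like cells, 14.6 CPM (7.77 to 24.97). A UMI of Ifitm10 was seen in 45.8% of NK cell-like cells (37.8 to 54.0), 5.34% of T cell-like cells (4.49 to 6.30) and 1.75% of neutrophil-like cells (1.30 to 2.29), at median depths of 3774, 4820 and 5516 UMIs. After each cell was thinned to 500 UMIs, the shares were 5.16% (2.25 to 9.92), 0.526% (0.280 to 0.898) and 0.0685% (0.00830 to 0.247). Across the groups of the liver-labelled library, T cell-like cells had Ifitm10 at 13.4, 11.5 and 12.8 CPM in the vehicle, low dose and high dose groups, with overlapping intervals.

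Within the neutrophil-like class, Ifitm6 and Ifitm1 differed most between clusters. In the liver-labelled library, Ifitm6 stood at 8484 CPM in cluster 6 (led by Stfa and Cstdc genes, which code for stefins), 8303 CPM in cluster 9 (Ltf, Camp, Ngp) and 7447 CPM in cluster 5 (Retnlg, Mmp8, Ly6g). It stood at 2030 CPM in cluster 7 (Saa3, Wfdc17), 242 CPM in cluster 4 and 198 CPM in cluster 3, both led by Il1b and Csf1 among others. The highest was 42.8 times the lowest, and in the spleen-labelled library 47.4 times, from 9464 CPM in cluster 3 (Ly6g, Ltf) to 199 CPM in cluster 2 (Ccrl2, Il1b). Ifitm1 ran differently. Its lowest levels were in the clusters led by granule genes, 1581 CPM in cluster 9 of the liver-labelled library and 1028 CPM in cluster 8 (Camp, Cebpe, Fcnb) of the spleen-labelled library. Its highest were 17608 CPM in cluster 7 and 15795 CPM in cluster 0 (Steap4, Wfdc17, Retnlg), 11.1 and 15.4 times the lowest. For Ifitm2 the highest level was 1.79 and 3.29 times the lowest, and for Ifitm3 1.90 and 1.88 times. The Il1b clusters 3 and 4 of the liver-labelled library had high Ifitm1 (12926 and 14335 CPM) with low Ifitm6, and cluster 9 had the reverse.

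**Figure D2:**
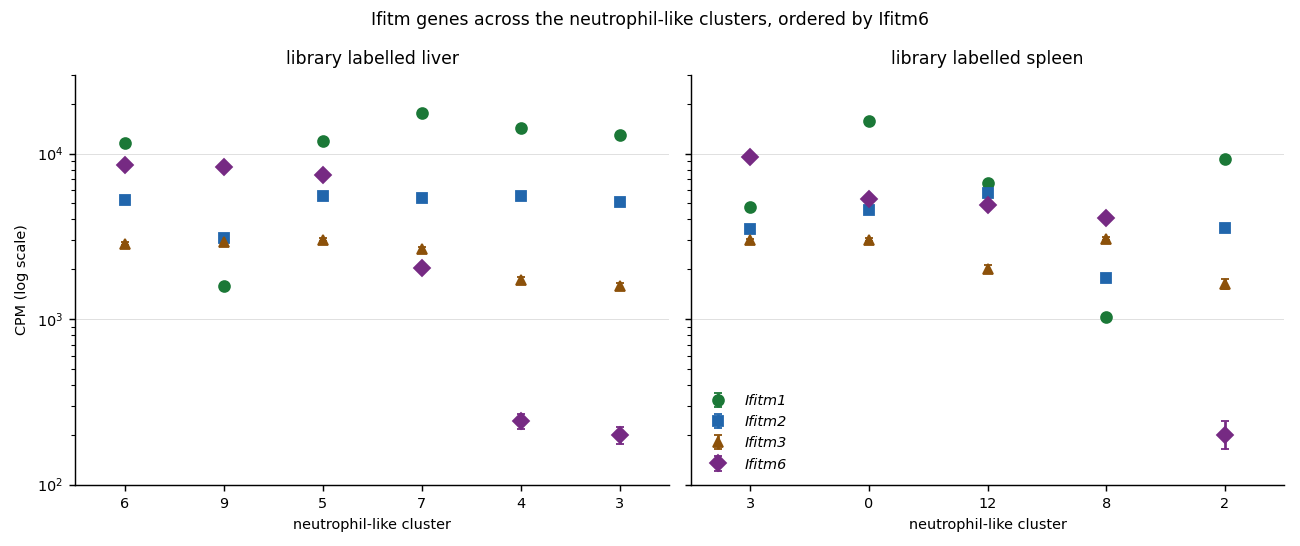
Level of 4 Ifitm genes in each neutrophil-like cluster, all hashtag groups together, in CPM on a log axis with exact Poisson 95% intervals; clusters are ordered by Ifitm6. Ifitm6 falls from 8484 to 198 CPM in the liver-labelled library and from 9464 to 199 CPM in the spleen-labelled library, Ifitm1 is lowest in clusters 9 and 8, and Ifitm2 and Ifitm3 span 3.29 times or less.

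The high dose was compared with the vehicle in neutrophil-like cells to see whether the family changed in the lineage the study reports on. These cells made up 46.1% of the vehicle group and 9.31% of the high dose group in the liver-labelled library (1430 and 199 cells), and 43.9% and 17.9% in the spleen-labelled library (361 and 155 cells). The high dose cells were deeper than the vehicle cells, with medians of 18606 against 4369 UMIs and of 14147 against 4929 UMIs. They were also spread differently over the clusters. Clusters 3, 4 and 7 held 62.0% of the vehicle cells of the liver-labelled library and 6.53% of the high dose cells, whereas clusters 6 and 9 held 26.0% and 81.4%. Cluster 2 of the spleen-labelled library held 28.3% and 1.94%, and its clusters 3 and 8 together 36.0% and 62.6%.

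Ifitm6 differed most between these groups, and the size depended on how cells were added up. From UMIs summed over the class it stood at 5841 CPM (5797 to 5884) in the vehicle, 6425 CPM in the low dose and 9695 CPM (9599 to 9792) in the high dose group of the liver-labelled library. The spleen-labelled library gave 5091, 5596 and 7079 CPM. The high dose lay above both other groups in each library, by log2 ratios to the vehicle of 0.73 (0.71 to 0.75) and 0.48 (0.44 to 0.51), or 1.66 and 1.39 times. The mean over single cells, in which shallow cells weigh as much as deep ones, gave log2 ratios of 1.76 and 1.10, past 2-fold in both. The share of all genes that passed 2-fold on means over cells is not given. Those means were 2775 CPM in the vehicle and 9427 CPM in the high dose group of the liver-labelled library, and 3564 and 7621 CPM in the spleen-labelled library. The median cell had 397 CPM in the vehicle and 9493 CPM in the high dose group of the liver-labelled library, and 1824 and 6875 CPM in the spleen-labelled library. At an equal depth of 500 UMIs per cell, 39.0% of vehicle cells (36.5 to 41.6) and 94.97% of high dose cells (90.95 to 97.6) of the liver-labelled library had an Ifitm6 UMI. The shares were 53.5% (48.2 to 58.7) and 84.5% (77.8 to 89.8) in the spleen-labelled library. Without thinning they were 62.9% and 99.5%, and 68.7% and 97.4%. T cell-like cells, as a background, had 2.03% and 1.86% after thinning in the vehicle and high dose groups of the liver-labelled library, and 1.18% in the high dose group of the spleen-labelled library, at median depths of 4795, 5042 and 5133 UMIs.

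**Figure D3:**
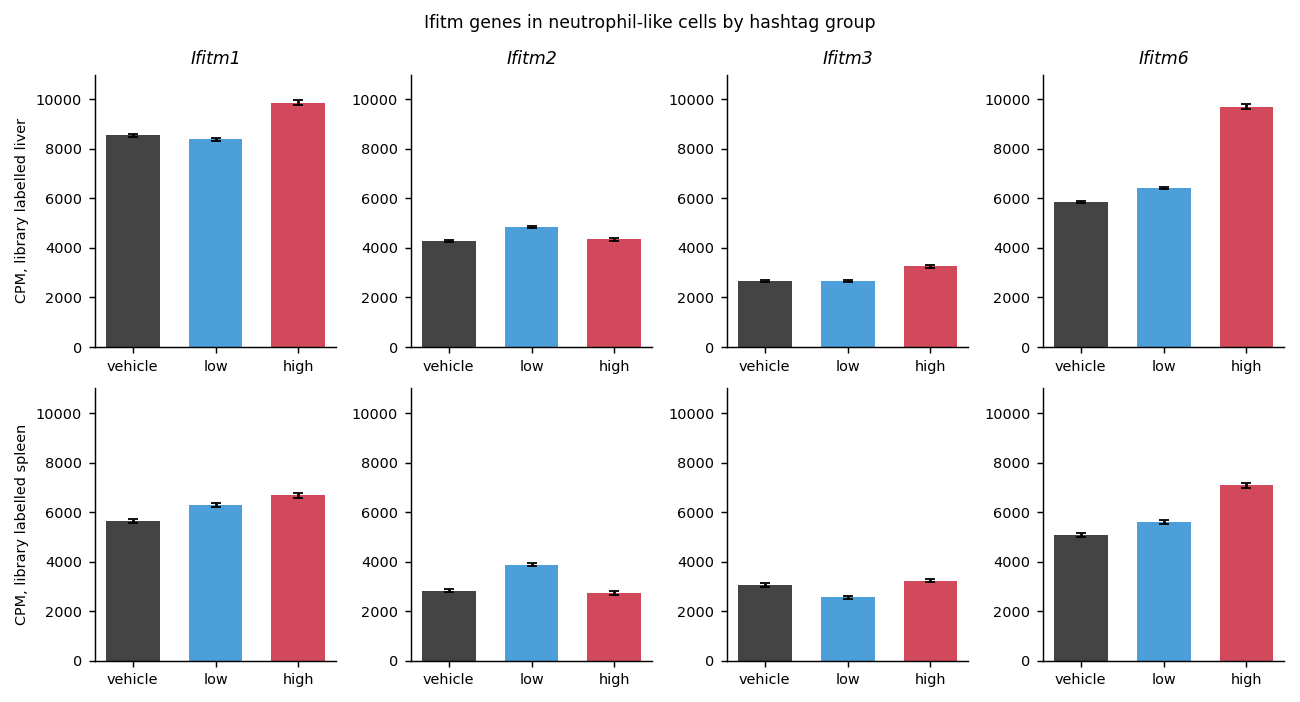
Level of 4 Ifitm genes in neutrophil-like cells of each hashtag group, in CPM from UMIs summed over the cells of 1 pooled sample; bars start at 0 and carry exact Poisson 95% intervals. Ifitm6 is highest at the high dose in both libraries (9695 and 7079 CPM), and Ifitm2 is highest at the low dose (4852 and 3868 CPM).

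Inside single clusters the Ifitm6 difference was smaller in 3 of the 4 comparisons that had 50 cells in both groups. Its log2 ratio of the high dose to the vehicle was 0.43 (0.40 to 0.46) in cluster 6 and 0.14 (0.11 to 0.16) in cluster 9 of the liver-labelled library. In the spleen-labelled library it was 0.86 (0.80 to 0.93) in cluster 0 and 0.22 (0.18 to 0.27) in cluster 3. Ifitm1 also differed inside the granule gene clusters. It stood at 3634 CPM in the high dose and 1410 CPM in the vehicle cells of cluster 9, a log2 ratio of 1.37 (1.31 to 1.42). In cluster 3 of the spleen-labelled library it stood at 7515 and 4669 CPM (0.69, 0.63 to 0.75). The share of all genes past 2-fold inside single clusters is not given. At the low dose the same clusters had less Ifitm1 than the vehicle, 927 CPM in cluster 9 and 3119 CPM in cluster 3 (log2 ratios of -0.60 and -0.58). In the other clusters compared at the high dose, Ifitm1 had 0.24 in cluster 6 (liver-labelled) and -0.18 in cluster 0 (spleen-labelled). The remaining low dose ratios ran from -0.68 in cluster 8 to 0.39 in cluster 2 of the spleen-labelled library. Over the whole class, in which the clusters are mixed, the Ifitm1 ratio at the high dose was 0.21 (0.19 to 0.22) and 0.24 (0.22 to 0.27), and it was -0.02 and -0.13 as a mean over cells.

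**Figure D4:**
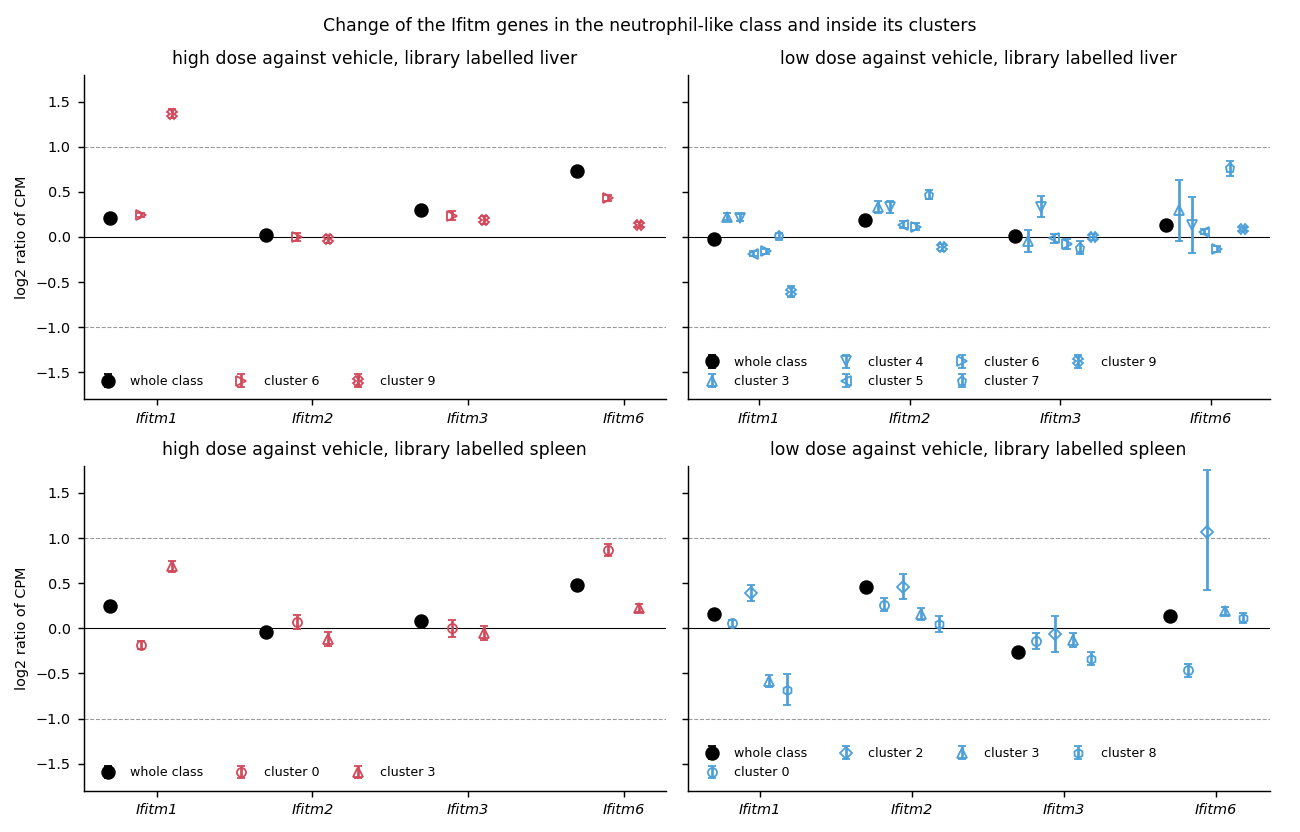
Log2 ratio of each dose to the vehicle for 4 Ifitm genes, in the whole neutrophil-like class (filled circles) and inside each of its clusters with at least 50 cells in both groups (open symbols), with exact 95% intervals; dashed lines mark a 2-fold change. No whole-class ratio reaches 2-fold. Ifitm1 in cluster 9 of the liver-labelled library does at the high dose (1.37). Ifitm6 in cluster 2 of the spleen-labelled library does at the low dose (1.07, from 0.43 to 1.75, 75 against 28 UMIs). The share of all genes past 2-fold inside single clusters is not given. Ifitm2 at the high dose stays between -0.12 and 0.07.

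Ifitm2 differed little between the vehicle and the high dose. It stood at 4274 CPM in the vehicle and 4344 CPM in the high dose cells of the liver-labelled library (log2 ratio 0.02, -0.001 to 0.05) and at 2824 and 2735 CPM in the spleen-labelled library (-0.05, -0.09 to 0.0007). It was highest in the low dose groups, at 4852 and 3868 CPM, with ratios to the vehicle of 0.18 and 0.45. In the second, cluster 12 (Bcl2l15, Orm1, Saa1) had the highest Ifitm2 of the neutrophil-like clusters, 5804 CPM, and held 120 of 620 low dose cells against 2 of 361 vehicle cells, and the ratio was 0.32 without it. Ifitm3 stood at 2657 and 3261 CPM in the vehicle and high dose cells of the liver-labelled library (0.30, 0.27 to 0.33) and at 3060 and 3233 CPM in the spleen-labelled library (0.08, 0.03 to 0.12). The low dose value of Ifitm3 was 2670 CPM in the first, next to the vehicle, and 2558 CPM in the second, below it by a ratio of -0.26.

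None of the 4 members with at least 50 UMIs over both groups passed a 2-fold change in neutrophil-like cells at either dose from summed UMIs. Over all genes with as many UMIs, 14.1% passed at the high dose in the liver-labelled library, mostly lower, and the median log2 ratio of all those genes was -0.35. In the spleen-labelled library 3.38% passed and the median was 0.02. At the low dose 1.47% and 2.51% passed.

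**Figure D5:**
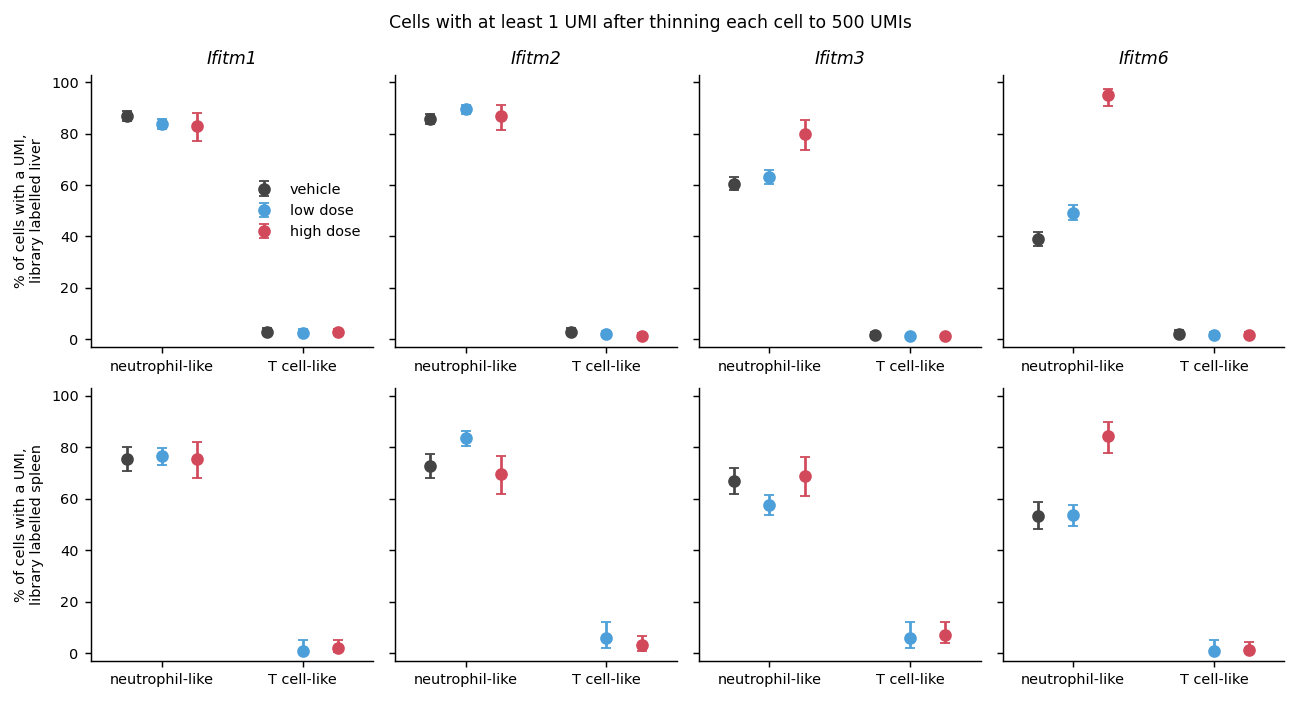
Share of cells with at least 1 UMI of an Ifitm gene after each cell was thinned to 500 UMIs, in neutrophil-like and T cell-like cells of each hashtag group with at least 50 cells, with exact Clopper-Pearson 95% intervals. Ifitm6 is seen in 39.0% and 53.5% of vehicle cells and in 94.97% and 84.5% of high dose cells, the intervals of the vehicle and the high dose overlap for Ifitm1, and T cell-like cells stay at or below 7.10%.

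The shares of the other members were closer between the groups. After thinning, Ifitm1 was seen in 86.9%, 83.9% and 82.9% of neutrophil-like cells of the vehicle, low dose and high dose groups of the liver-labelled library, and in 75.6%, 76.6% and 75.5% in the spleen-labelled library. The intervals of the vehicle and the high dose overlapped in both. Ifitm3 was seen in 60.6% (58.0 to 63.1), 63.1% and 79.9% (73.7 to 85.2) in the liver-labelled library, where the high dose lay above, and in 67.0%, 57.7% and 69.0% in the spleen-labelled library, where the vehicle and the high dose overlapped. Ifitm2 was seen in 83.5% (80.4 to 86.4) of the low dose cells of the spleen-labelled library, against 72.9% (67.9 to 77.4) in the vehicle and 69.7% in the high dose. Without thinning, Ifitm1, Ifitm2 and Ifitm3 were each seen in over 90% of neutrophil-like cells of every group. How often the thinned shares of other genes differed between groups as much as those of Ifitm3 or Ifitm6 is not given.

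In other classes members passed 2-fold in progenitor-like, B cell-like and macrophage-like cells. Granulocyte progenitor-like cells of the liver-labelled library had Ifitm1 at 2051 CPM in the high dose and 774 CPM in the vehicle group, a log2 ratio of 1.41, where 10.5% of all genes passed. Ifitm1 was at 1781 and 589 CPM in cluster 12 (42 and 108 cells) and at 2234 and 1245 CPM in cluster 18 (75 and 41 cells). At the low dose Ifitm1 was at 250 CPM in cluster 12 (97 cells), a log2 ratio to the vehicle of -1.23 (-1.35 to -1.12). How many of all genes passed 2-fold inside cluster 12 is not given. In cluster 18 Ifitm1 was at 1671 CPM at the low dose (37 cells). The 42 high dose cells of cluster 12 and the 41 vehicle cells of cluster 18 are under the minimum set for a group. The high dose levels inside these clusters therefore have no ratio or interval, and their contrast with the low dose was not tested. Over the whole class none of the 4 members passed at the low dose (1.18% of all genes did) or in progenitor-like cells of the spleen-labelled library (1.85% did). Ifitm6 had a ratio of -0.71 at the high dose, and cluster 18, where Ifitm6 was low, held 75 of 117 high dose cells and 41 of 149 vehicle cells. Summed neutrophil markers, none of 12 at 0, were at 113242 CPM in the high dose and 234934 CPM in the vehicle cells, and their part in these ratios was not tested.

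B cell-like cells of the liver-labelled library had Ifitm1 at 86.2 CPM in the vehicle, 201 CPM in the low dose and 41.6 CPM in the high dose group, log2 ratios of 1.22 (1.63% of all genes passed) and -1.05 (1.52% passed). The low dose value rested on cluster 19, with 147 of 149 cells in the low dose group and Ifitm1 at 613 CPM. Without that cluster the ratio was -0.83. With doublets called by Scrublet removed, the ratios were 0.03 and -0.19. Summed neutrophil markers in B cell-like cells stood at 1711, 2961 and 1641 CPM in the 3 groups, with none of 12 at 0. T cell-like cells had Ifitm1 at 64.4, 108 and 37.7 CPM, log2 ratios of 0.75 and -0.77, and none of the 5 members passed at either dose (0.772% of all genes at the high dose and 0.532% at the low dose). Without the Scrublet doublets the T cell-like ratios were 1.13 at the low dose, past 2-fold, and -0.07 at the high dose, and by the dominant hashtag the low dose ratio was -0.07. Inside single T cell-like clusters, Ifitm1 in cluster 8 at the low dose had 1.93 (1.20 to 2.74, 111 UMIs in 141 cells against 18 in 80). It had 0.35 in cluster 0 and 0.82 in cluster 2 at that dose. Ifitm2 in cluster 2 had -1.36 (-2.03 to -0.72) at the high dose and -1.11 (-1.78 to -0.46) at the low dose, from 35, 34 and, in the vehicle, 52 UMIs. At the high and the low dose it had -0.10 and 0.63 in cluster 0, and -0.29 and 0.16 in cluster 8. No other member with at least 50 UMIs passed 2-fold in these clusters, and the share of all genes that passed inside single clusters is not given. In T cell-like cells, summed neutrophil markers were at 1565, 1497 and 1255 CPM.

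Macrophage-like cells had Ifitm6 past 2-fold at both doses, lower than the vehicle in the liver-labelled library and higher in the spleen-labelled one. Summed neutrophil markers had the same direction each time, by a log2 ratio of only -0.14 at the low dose in the liver-labelled library. In the liver-labelled library, Ifitm6 had 59 UMIs (243 CPM) in the vehicle, 20 (97.0 CPM) in the low dose and 8 (62.9 CPM) in the high dose group, log2 ratios of -1.33 (5.61% of all genes passed) and -1.95 (7.72% passed). Summed neutrophil markers stood at 7495, 6819 and 1831 CPM there, with 1, 1 and 5 of 12 at 0. Ifitm1 also passed at the high dose, with 98 UMIs in the vehicle and 20 in the high dose group (-1.36). The spleen-labelled library had 74 Ifitm6 UMIs (102.8 CPM) in the vehicle, 283 (233 CPM) in the low dose and 452 (270.5 CPM) in the high dose group. The ratios were 1.18 (2.70% passed) and 1.40 (3.28% passed). Summed neutrophil markers there were at 1070, 6641 and 6156 CPM, with none at 0. The part of neutrophil RNA in these ratios was not tested. The macrophage-like ratios also depended on the processing. Ifitm6 at the low dose in the liver-labelled library was 0.06 by the dominant hashtag, Ifitm6 at the high dose there was -0.55 by MULTIseqDemux, and Ifitm1 at the high dose was 1.48 with all variable features. In the other library Ifitm6 was -0.05 at the high dose and 0.15 at the low dose at resolution 0.4. The macrophage-like cells also differed between the libraries, led by Vcam1, Cd5l and Spic in the first and by Arg1, Ccl8 and Pf4 in the second.

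In monocyte-like cells, where Ifitm3 is highest, only the low dose could be compared. Ifitm3 stood at 3305 and 3261 CPM in the vehicle and low dose cells of the liver-labelled library (log2 ratio -0.02) and at 4474 and 3630 CPM in the spleen-labelled library (-0.30). None of the 4 members passed 2-fold (2.10% and 2.43% of all genes did). Hepatocyte-like cells of the spleen-labelled library, whose leading genes were mostly mitochondrial, had Ifitm3 at 287 CPM in the vehicle and 181 CPM in the high dose group, from 31 and 47 UMIs, and the 2 members tested did not pass where 24.6% of all genes did and the median of all genes was -0.59.

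From summed UMIs, no Ifitm gene or listed interferon-stimulated gene with at least 50 UMIs was 2-fold higher in neutrophil-like cells. With at least 10 UMIs, 2 of 39 list genes were higher at the high dose in the spleen-labelled library, beside 5.14% of all genes. Of a list of 42, 41 were listed in the matrices. In the liver-labelled library 35 had at least 50 UMIs at the high dose, of which 0 were higher and 7 lower by 2-fold, with a median log2 ratio of -0.46 beside -0.35 for all genes, of which 0.671% were higher and 13.4% lower. At the low dose 12 of 35 were lower and 0 higher, with a median of -0.52 beside -0.11 for all genes, of which 1.32% were lower and 0.147% higher. The spleen-labelled library had 2 of 28 lower at the high dose, where the median was -0.08 beside 0.02 and 2.04% of all genes were lower. It had 2 of 31 lower at the low dose, where the median was -0.28 beside -0.06 and 1.41% of all genes were lower. None was higher there, beside 1.34% of all genes at the high dose and 1.10% at the low dose.

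Ifit1, which binds viral RNA, and Bst2, which tethers budding virions, were lower at both doses in both libraries. Ifit1 stood at 16.7 CPM in the vehicle, 7.41 CPM in the low dose and 6.73 CPM in the high dose group of the liver-labelled library, and at 15.9, 7.38 and 7.33 CPM in the spleen-labelled library. Bst2 stood at 9.68, 4.61 and 2.24 CPM, and at 18.9, 5.85 and 8.20 CPM. Both genes had under 200 UMIs over both groups in each comparison of the spleen-labelled library. With at least 200 UMIs, 0 of 8 list genes were lower there at the high dose and 0 of 9 at the low dose. Of all genes with as many UMIs, 1.76% and 0.343% were lower. In the liver-labelled library Rsad2, Oasl2 and Gbp3 were also lower at both doses. Ifih1, an RNA sensor, and Gbp2 were lower at the high dose, with log2 ratios of -1.17 and -1.13. Usp18, Stat2, Zbp1, Xaf1, Gbp7, Igtp and Irgm1 were lower at the low dose, with ratios from -1.02 to -1.30. Zbp1, the sensor of Z-form nucleic acid, stood at 44.3 CPM in the vehicle and 18.0 CPM in the low dose cells. It was not among the genes that passed at the high dose in that library, or at either dose in the spleen-labelled library.

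Of 13 ligands, receptors and signalling genes, 10 had at least 50 UMIs at the high dose in the liver-labelled library, and 2 were lower. These were Ifnar1, a chain of the type I interferon receptor, and Irf3 (log2 ratios of -1.51 and -1.36), where 13.4% of all genes were lower. The median of the 10 was -0.38 beside -0.35 for all genes. Socs1, an inhibitor of interferon signalling, was higher at both doses in the spleen-labelled library (1.43 and 1.12), from 18 UMIs in the vehicle. It was 1 of 9 tested at the high dose and 1 of 10 at the low dose, where 1.34% and 1.10% of all genes were higher. In T cell-like cells of the liver-labelled library, 1 of 30 interferon-stimulated genes was lower at the high dose (Ifit1, -1.02), beside 0.154% of all genes, and 0 of 29 at the low dose, beside 0.161%. In neutrophil-like cells, summed UMIs put the 4 abundant Ifitm genes at or above the vehicle at the high dose. Ifitm2 in the spleen-labelled library was the exception. The median of the interferon-stimulated list was -0.46 and -0.08 in the 2 libraries, beside -0.35 and 0.02 for all genes. As means over cells, Ifitm1 lay below the vehicle in both libraries (11998 against 12168 CPM and 8611 against 9432 CPM). So did Ifitm2 in the spleen-labelled library (2998 against 3236 CPM).

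Of 8 other genes of the same superfamily, Ifitm5 had 75 and 42 UMIs in the 2 libraries, Ifitm7 18 and 3, and Tmem91 186 and 26, and the remaining 5 had at most 2.

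Likeness was taken as Pearson's r of log2(CPM + 10) over the 23 clusters of the liver-labelled library and the 18 of the spleen-labelled library, which share libraries and depth, among genes with at least 1000 UMIs. Ifitm2 and Ifitm3 were each near the top of the other's list, at r = 0.97 and 0.92. Beside Ifitm3, the genes most like Ifitm2 were Alox5ap and Csf2rb (0.98 and 0.96) in the first library and Pxn and Ugp2 (0.90 and 0.89) in the second. Beside Ifitm2, Ifitm3 was most like Alox5ap and Csf2rb (0.96 and 0.96), and Anxa3 and Mapk3 (0.88 and 0.84). Ifitm6 was most like Cd177, a surface protein of neutrophils, in both (0.97 and 0.94), followed by Abca13 and G6pdx (0.96 and 0.95), and S100a8 and Wfdc21 (0.94 and 0.93). Ifitm1 was most like Gk, Csf3r and Cpd (0.95, 0.94 and 0.94), and Ltb4r1, Clec4e and Msrb1 (0.92, 0.92 and 0.91). Ifitm1 and Ifitm6, both highest in neutrophil-like cells, had r = 0.70 and 0.83 with each other.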

How the data were processed

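Single-cell RNA was measured in 2 libraries, each holding 3 hashtagged groups. The values are UMI counts per gene and cell that the authors deposited as 10x Genomics matrices with hashtag counts, not normalized. The matrix headers name Cell Ranger 5.0.0, the submitters' processing notes 6.0.0 and the methods another version, with the build mm10 (GRCm38). Deposited barcodes held at least 500 UMIs, with mitochondrial shares of up to 99.0%, and no further filter was set. Median depths were 4673 and 3368.5 UMIs.

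Groups were taken from hashtag counts (HTODemux, Seurat 5.3.0, R 4.3.3), which left 616 and 215 doublets and 540 and 1627 barcodes without a group out. Scrublet (scanpy 1.11.5), run on all deposited barcodes, marked 248 and 1 of them, and in the second library that call cannot be relied on. Marked cells that had a group were kept. Cells were clustered after sctransform 0.4.2 (30 components, resolution 0.8) without Ifitm and interferon list genes, and a cluster was named by at least 3 markers raised by a log2 fold of 1 and seen in 20% of its cells. UMIs were summed per class and group and divided by their total (CPM) in Python 3.11.15 (numpy 2.4.6, scipy 1.17.1, pandas 2.3.3). Intervals are exact Poisson for levels, exact conditional binomial for ratios and exact Clopper-Pearson for shares. With 1 pooled sample per group, a gene counts as passing at a 2-fold change with at least 50 UMIs over both groups and 50 cells in each. On counts simulated for neutrophil-like cells at the high dose (liver-labelled library), 96.0% of intervals over 7439 genes held the true ratio. Those counts were Poisson, without variation between cells, clusters or mice. The simulation therefore checks the calculation of the intervals and not how well they cover the spread of real samples.

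All 5 members are named, together with interferon list genes that passed in neutrophil-like or T cell-like cells and the 3 genes most like each member with at least 1000 UMIs. The members and lists were chosen with earlier results of these data known. The alternatives were other hashtag calls, a cell filter, other resolutions and features, removal of doublets, means over cells, totals that omit the 20 most abundant genes, other depths of thinning and other UMI minimums.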

Additional observations from a re-analysis of the deposited data

Results flagged for a closer look

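In 8 cases the log2 ratio of a dose to the vehicle had opposite signs in the 2 libraries, with intervals that lay on opposite sides of 0. None of these differences was tested, since each group was 1 pooled sample. The number of cases compared in both libraries is not given, nor is the share of all genes with such opposite signs. The 8 cases are therefore no measure of how the family differs from other genes. At the high dose in macrophage-like cells, Ifitm1 had -1.36 in the liver-labelled library, against 0.16 in the spleen-labelled one, and Ifitm6 had -1.95 and 1.40. At the low dose in macrophage-like cells, Ifitm3 had -0.69 and 0.24, and Ifitm6 had -1.33 and 1.18. In granulocyte progenitor-like cells at the low dose, Ifitm1 had -0.23 and 0.37, and Ifitm3 had -0.27 and 0.17. Ifitm1 at the low dose had 0.20 and -0.38 in monocyte-like cells, and -0.027 and 0.16 in neutrophil-like cells. The macrophage-like signs did not all hold under other processing: Ifitm1 at the high dose had 1.48 in the liver-labelled library with all variable features, Ifitm6 at the low dose had 0.061 there by the dominant hashtag, Ifitm3 at the low dose had 0.50 there by MULTIseqDemux, and Ifitm6 at the high dose had -0.049 in the spleen-labelled library at resolution 0.4. The macrophage-like and progenitor-like classes held cells with different leading genes in the 2 libraries.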

How the results depend on the processing

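Each group was 1 pooled sample, so no value has a replicate error and intervals cover counting error only. No paired analysis was possible because each group had 1 sample per library and no replicate numbers. Of 710 log2 ratios under an alternative, 534 stayed within the interval of the reported value, 172 moved beyond it and 4 past 2-fold turned. Of all these ratios, 58 had the other sign and 46 moved by over 1.5 times. Of 400 levels under an alternative, 141 moved beyond the interval of the reported value, and so did 30 of 32 shares. Of 8 counts, 4 changed. The cause of the changes below was not tested.

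As means over cells, the high dose ratios in neutrophil-like cells were -0.020 for Ifitm1, 0.56 for Ifitm3 and 1.76 for Ifitm6 in the liver-labelled library, and -0.13, -0.11, 0.21 and 1.10 for Ifitm1, Ifitm2, Ifitm3 and Ifitm6 in the spleen-labelled library. With the 20 most abundant genes left out of the total they were 0.33, 0.15, 0.42 and 0.85 for the same 4 genes in the liver-labelled library. In cells of at least 200 genes with mitochondrial UMIs under 10%, Ifitm1 had 0.23 in the liver-labelled library, and Ifitm1, Ifitm3 and Ifitm6 had 0.29, 0.026 and 0.38 in the spleen-labelled library. By the dominant hashtag, Ifitm1 had 0.26 in the liver-labelled library and Ifitm6 0.52 in the spleen-labelled library. By MULTIseqDemux, Ifitm2 had 0.014 and Ifitm6 0.58 in the spleen-labelled library. At resolution 1.6, Ifitm1 had 0.23 in the liver-labelled library.

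Ratios past 2-fold turned in 4 cases. In macrophage-like cells, Ifitm6 at the low dose in the liver-labelled library had 0.061 by the dominant hashtag, Ifitm1 at the high dose there had 1.48 with all variable features, and Ifitm6 at the high dose in the spleen-labelled library had -0.049 at resolution 0.4. Ifitm1 in B cell-like cells at the low dose had -0.83 without cluster 19, an alternative chosen after seeing the data, as were leaving out the shared barcodes and leaving out cluster 12 of the spleen-labelled library. Without that cluster 12, the low dose ratios in neutrophil-like cells were 0.32 for Ifitm2 and -0.20 for Ifitm3. Of 35 interferon-stimulated genes in neutrophil-like cells of the liver-labelled library, 7 were lower at the high dose, and the count was 4 of 26 with at least 200 UMIs and 9 of 40 with at least 10. In the spleen-labelled library, 2 were lower, against 0 with at least 200 UMIs and 6 with at least 10, where 2 were higher.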
